A study of Mus musculus with 12 samples.

Results

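The complement genes described here are 32 mouse genes for components, receptors and regulators of the complement system, measured in renal cortex. They were taken as the probe sets whose annotated gene symbol is on that list. Of the 32 genes, 28 had at least 1 named probe set, 46 probe sets in all among 45101 on the array. A total of 18 genes were bright enough to be tested, among 12385 tested genes of the array, and the 10 others with a probe set are given by their signals only. C3, C4b, Cfd and C7 have no probe set of their own in the annotation used and were not analysed here.

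The cortex came from ICGN mice, whose strain was bred from ICR and is labelled with nephrotic syndrome, and from ICR mice, labelled normal, at 4 and at 8 weeks of age, with no treatment named. Each of the 4 groups has 3 Affymetrix Mouse Genome 430 2.0 arrays, 12 in all. ICGN mice are known to carry a mutation of Tns2, a focal adhesion protein of podocytes, and ICR is an outbred stock, so differences at other loci and effects of the disease cannot be told apart. The number of mice behind each array is not stated, so the p-values reflect only how these samples scatter, which may be in part technical, and 3 arrays a group limit the precision. The sources used here do not give the sex of the animals.

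Values are signals in arbitrary units after all arrays had been brought to a median of 40.4. Fold changes are on the scale log2(signal + 9), are given with their standard error and relative to the median gene of the comparison, and understate the change of dim genes. Before that subtraction the median gene stood at -0.02 between the strains at 4 weeks and at -0.19 at 8 weeks. The p-values test the difference before it, while the intervals are given after it. Called genes are those whose adjusted p, from limma's moderated test with Benjamini-Hochberg adjustment over all tested genes, did not exceed 0.05. Deposited array medians were 17.4 to 19.0 at 4 weeks and 75.3 to 108 at 8 weeks, since the arrays of each age had a scaling target of their own, so age and array processing cannot be told apart. Arrays of 1 group correlated across genes with r between 0.977 and 0.988. Tns2 signal was 318, 334 and 343 in ICR and 96.2, 71.8 and 66.5 in ICGN at 4 weeks, and 337, 309.6 and 314 against 114, 60.0 and 48.4 at 8 weeks. It was called lower in ICGN at both ages (-1.96 ± 0.22, adjusted p = 0.000199, and -1.88 ± 0.22, adjusted p = 1.16e-05), and no array lay on the side of the other strain.

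Complement is a cascade of plasma proteins that is started by C1q bound to antibody or other surfaces, by mannose-binding lectins and ficolins bound to sugars, or by the alternative pathway on an unprotected surface. All routes cleave C3 and then C5, release the peptides C3a and C5a, and end in the membrane attack complex of C5b with C6, C7, C8 and C9. Most components are made in the liver, C1q is made mainly by macrophages and dendritic cells, and kidney tubule cells also transcribe several of these genes. Inhibitors in plasma and on host membranes keep the cascade in check, and complement deposition in glomeruli is a known feature of several kidney diseases.

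Between the strains, the 3 genes of C1q were higher in ICGN cortex at both ages, as were several macrophage markers. The inhibitor genes Cfi and Serping1 were called higher in ICGN at 8 weeks and not at 4 weeks, and passed the test of the difference between the ages. The C3a receptor gene C3ar1 was called at 8 weeks without passing that test, and the component gene C8a was lower in ICGN at both ages. At 4 weeks 4 of the 18 tested genes were called higher in ICGN and 2 lower, and 12 were not called. The background was 1.60% of all tested genes higher and 1.38% lower. At 8 weeks 6 were called higher, 2 lower and 10 not, against a background of 8.51% higher and 26.0% lower. The median log2 fold change of the 18 genes was 0.10 at 4 weeks and 0.23 at 8 weeks, where the median of all genes is 0 by the subtraction. The balance of all calls at 8 weeks moves with the scaling: 24.6% of calls were higher with the common median, 50.4% with quantile normalization and 60% with the deposited scaling. The plot of strain differences shows the 18 genes by role.

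**Figure D1:**
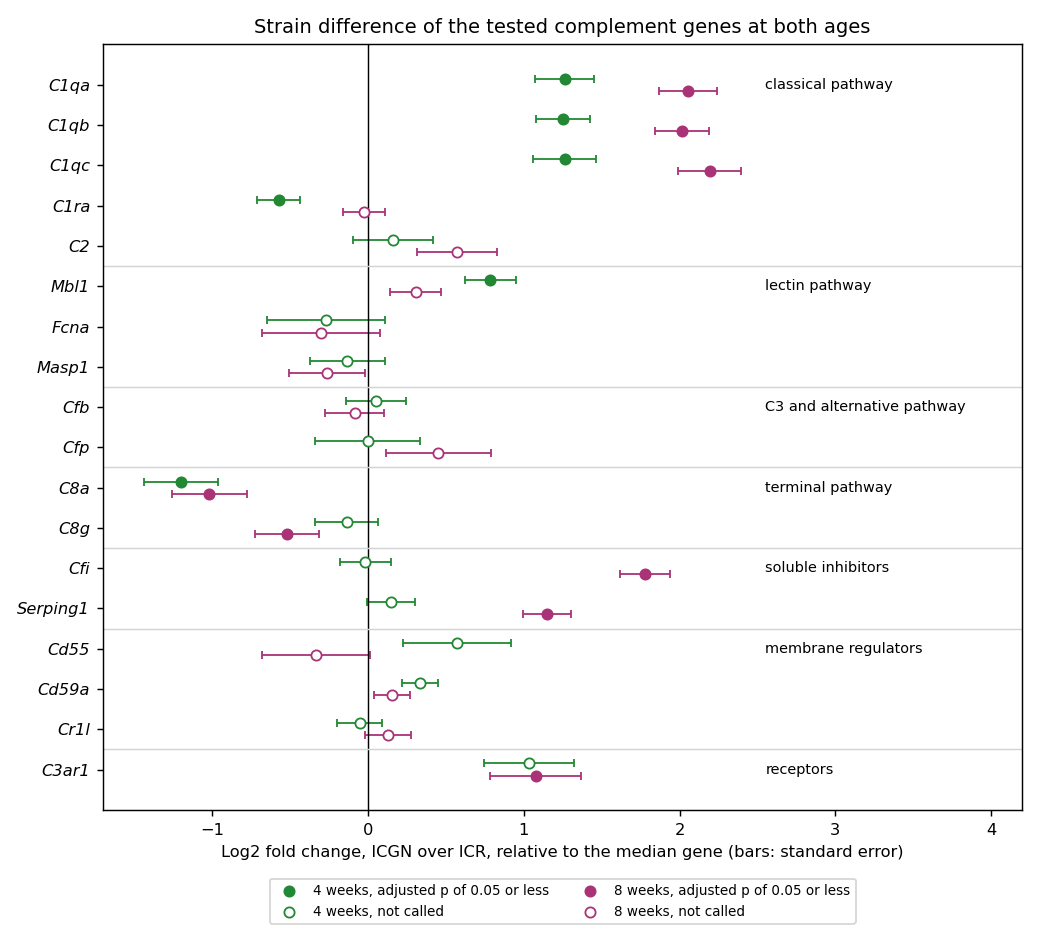
Log2 fold change of ICGN over ICR (x axis, relative to the median gene, bars are standard errors) for the 18 tested complement genes, by role, at 4 weeks (green) and 8 weeks (purple), with filled points for called genes. The C1q chains lie at 1.25 to 1.26 at 4 weeks and 2.01 to 2.19 at 8 weeks, Cfi and Serping1 leave the zero line only at 8 weeks, and C8a lies at -1.20 and -1.02.

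The classical pathway opens with C1q, a protein of A, B and C chains encoded by C1qa, C1qb and C1qc. The 3 genes are neighbours on chromosome 4 in the RefSeq annotation, in the order C1qb, C1qc and C1qa. RefSeq's promoter table (GRCm38.p6) held C1qb and C1qc but gave no entry for C1qa. The 250 bases before the start of both genes are shown because the genes were higher together, with capitals at the letters GAGGAA, searched on both strands as the core of sites of PU.1, a transcription factor of myeloid cells. C1qb is at chr4:136886201-136886450 and C1qc at chr4:136892915-136893164, both on the minus strand.
C1qb: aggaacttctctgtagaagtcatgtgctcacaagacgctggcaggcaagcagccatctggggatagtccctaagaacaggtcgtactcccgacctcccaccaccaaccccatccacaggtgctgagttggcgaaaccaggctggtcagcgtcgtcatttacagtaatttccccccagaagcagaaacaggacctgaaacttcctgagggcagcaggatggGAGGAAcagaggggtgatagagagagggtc
C1qc: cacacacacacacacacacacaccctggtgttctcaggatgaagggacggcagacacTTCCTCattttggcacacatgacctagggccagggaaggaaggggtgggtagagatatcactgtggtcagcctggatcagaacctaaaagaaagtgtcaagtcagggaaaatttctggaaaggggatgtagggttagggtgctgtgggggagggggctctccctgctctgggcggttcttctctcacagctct
The match begins 30 bases before the start in C1qb and 193 in C1qc, where it reads TTCCTC, the same letters on the other strand. These letters occur in 23.3% of all 32851 promoters of the table and in 5 of the 26 promoters of the complement genes, so a match is a description and not evidence of a site.

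C1qa signal at 4 weeks was 215, 255 and 154 in the ICR arrays and 503, 448 and 541 in the ICGN arrays. The values at 8 weeks were 183, 162 and 187 in ICR and 714, 498 and 841 in ICGN. Every ICGN array lay above every ICR array of either age. The fold change was 1.26 ± 0.19 at 4 weeks (adjusted p = 0.00173) and 2.05 ± 0.19 at 8 weeks (adjusted p = 8.66e-06), or 2.4-fold and 4.15-fold.

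C1qb signal was 134, 149 and 120.2 in ICR and 359, 296 and 329 in ICGN at 4 weeks. At 8 weeks the values were 99.3, 84.1 and 128 against 382, 309 and 489.8. Again no ICGN array overlapped the ICR arrays. Its fold changes were 1.25 ± 0.17 (adjusted p = 0.0011) and 2.01 ± 0.17 (adjusted p = 5.75e-06). Further probe sets of a gene are given from a fit of every named probe set on its own, adjusted over 21826 probe sets and chosen after seeing the data. In it both other C1qb probe sets pointed the same way. The probe set 1437726_x_at was called at both ages, and 1434366_x_at was called at 8 weeks and stood at 0.63 ± 0.21 at 4 weeks (adjusted p = 0.172).

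C1qc signal was 117, 111 and 68.6 in ICR and 226, 238 and 258 in ICGN at 4 weeks. At 8 weeks it was 79.9, 68.8 and 85.4 against 365, 248 and 432, with a fold change of 2.19 ± 0.20 (adjusted p = 8.55e-06) after 1.26 ± 0.20 at 4 weeks (adjusted p = 0.00296). The strains did not overlap. In all 3 chains the ICGN arrays of 8 weeks spread more than those of 4 weeks, replicate 3 being the highest and replicate 2 the lowest. The difference at 8 weeks exceeded that at 4 weeks by 0.80 ± 0.27 in C1qa, 0.77 ± 0.25 in C1qb and 0.94 ± 0.29 in C1qc, and none of the 3 passed the test of that excess (adjusted p = 0.154, 0.14 and 0.106). Without ICR replicate 3 of 4 weeks or without ICGN replicate 2 of 8 weeks, C1qc passed it (adjusted p = 0.0398 and 0.0412). The strain calls of the C1q genes held in all 23 alternative settings, with adjusted p no higher than 0.0161.

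**Figure D2:**
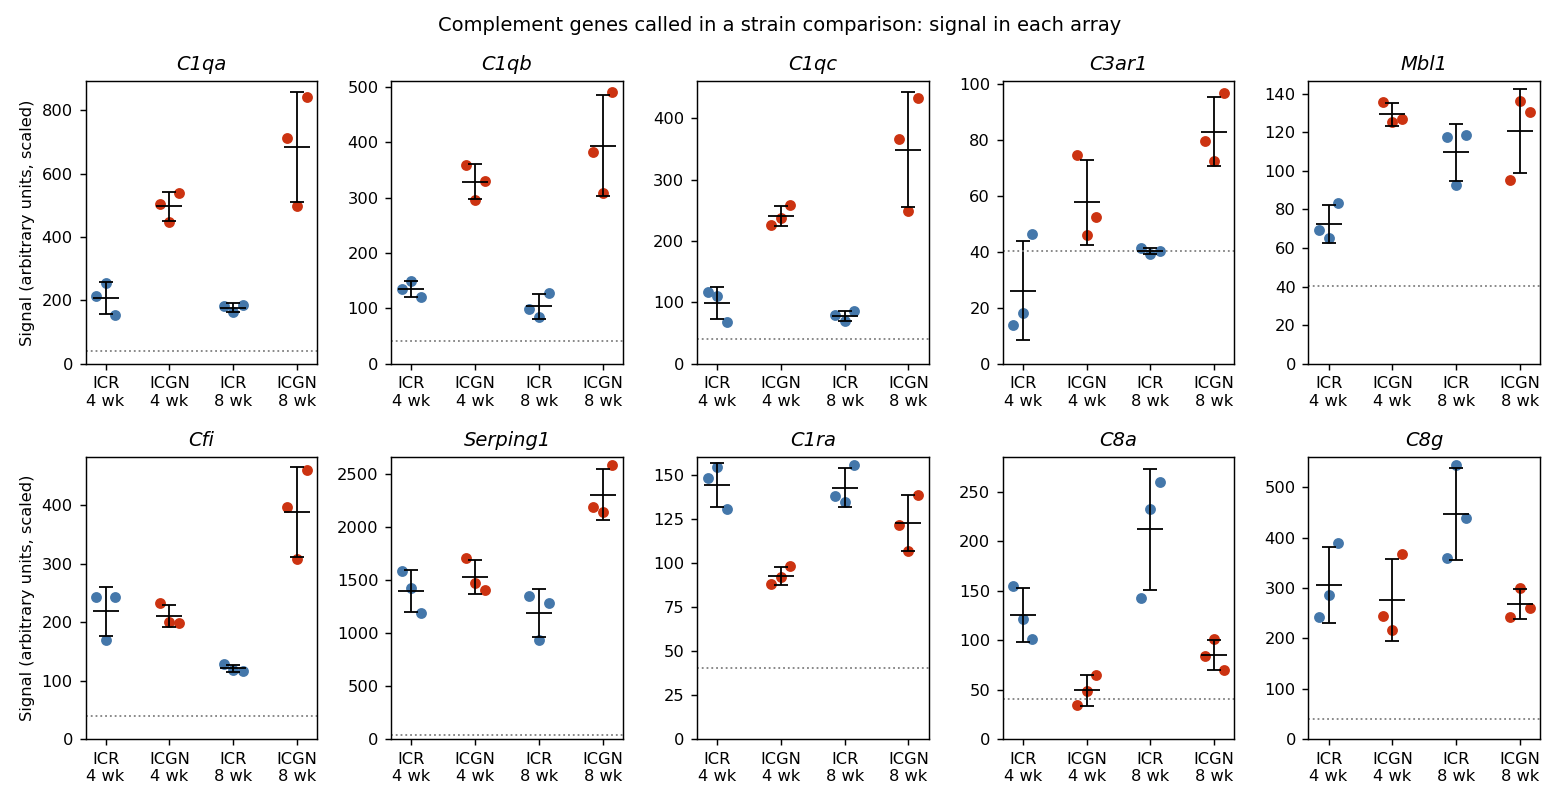
Scaled signal (y axes, arbitrary units) in each of the 12 arrays for the 10 complement genes called in a strain comparison, ICR in blue and ICGN in red, with bars for mean and SD and a dotted line at the common array median of 40.4. The ICGN arrays of C1qa (448 and above) lie clear of all ICR arrays (255 and below), while Cfi separates the strains at 8 weeks and not at 4 weeks.

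Macrophage markers moved with C1q. Of 14 tested genes of a macrophage list, 6 were called higher in ICGN at 4 weeks and 11 at 8 weeks, with medians of 0.67 and 1.47, and 0 were called lower at either age. The shares of all tested genes called higher were 1.60% and 8.51%. Mpeg1, which encodes a pore-forming protein of macrophages, stood at 1.46 and 2.28, Ctss at 1.28 and 2.35, and Ms4a7 at 1.32 and 2.23. Csf1r, the receptor of the macrophage growth factor, stood at -0.26 and 0.06 and was not called at either age, and Folr2, a marker of resident macrophages, stood at -0.37 and -0.42 and was not called. Cd163 and Timd4 did not pass the filter on dim values. The summed signal of the list was 2509 to 3265 in ICR and 3667 to 4262 in ICGN at 4 weeks, and 3542 to 4725 against 7234 to 8606 at 8 weeks. Mpeg1 signal in ICGN at 8 weeks was 720.1, 619 and 922, with replicate 3 the highest and replicate 2 the lowest. The order of these arrays was not counted over the other markers or over all genes. The 75th percentile of all scaled signals was 186, 205 and 222 in them. Replicate 3 was the highest there too, but the lowest was replicate 1 and not replicate 2. In this bulk tissue a different number of cells of a type and a different amount of RNA per cell cannot be told apart, and the part of macrophage content in the C1q result was not tested.

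**Figure D3:**
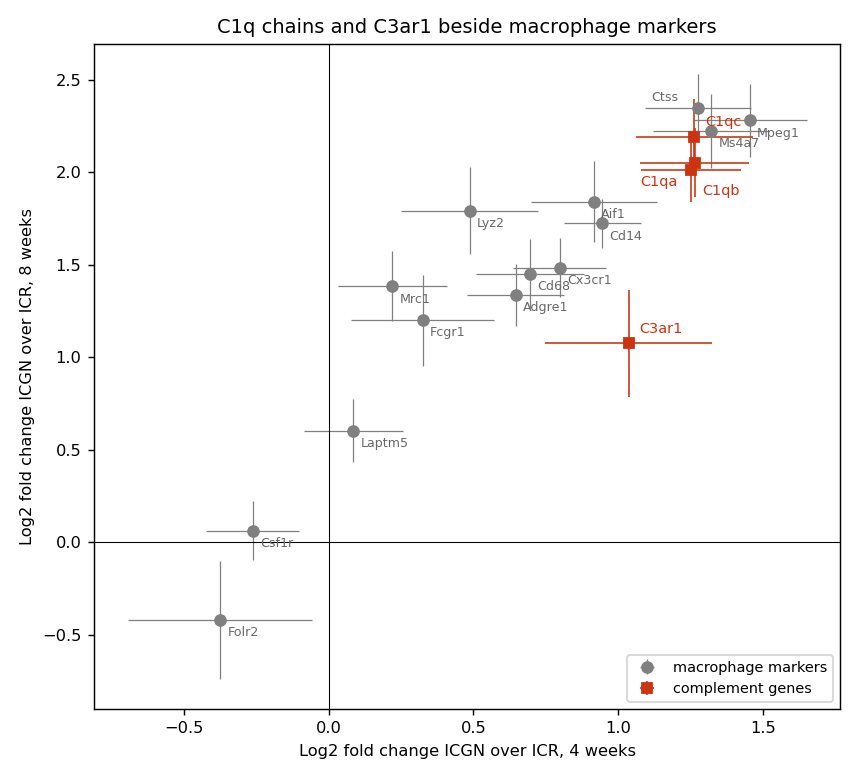
Log2 fold change of ICGN over ICR at 4 weeks (x axis) and 8 weeks (y axis), relative to the median gene, for 14 macrophage markers (grey circles) and for C1qa, C1qb, C1qc and C3ar1 (red squares), with standard errors. The C1q chains lie among the markers of the largest differences, next to Ctss (1.28 and 2.35) and Ms4a7 (1.32 and 2.23), and C3ar1 lies at 1.04 and 1.08.

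C1ra encodes C1r, the protease that C1q activates first. Its signal at 4 weeks was 148, 154 and 130.5 in ICR and 88.1, 91.9 and 98.2 in ICGN, so the groups did not overlap and ICGN was the lower (-0.57 ± 0.14, adjusted p = 0.0275). The values at 8 weeks were 138, 135 and 156 against 122, 107 and 139. The groups overlapped there, and the difference was -0.02 ± 0.14 (95% interval -0.32 to 0.27, adjusted p = 0.248). Before the subtraction of the median gene it was -0.21. The test of the difference between the ages did not pass (0.55 ± 0.19, adjusted p = 0.225). The call at 4 weeks lies close to the threshold. It was lost without any 1 of the 3 ICGN arrays of that age, and without ICR replicate 1 or 2 (adjusted p from 0.0517 to 0.109), while the difference stayed between -0.60 and -0.50. With no filter on dim genes it was also lost (-0.58, adjusted p = 0.0661).

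C1s1, the neighbour of C1ra on chromosome 6, encodes C1s, the protease that C1r activates, and is not on the list of 32. C1s1 signal was 237, 263 and 216 in ICR at 4 weeks and 284, 247 and 292 at 8 weeks, against 6.22, 5.14 and 3.67 and 10.2, 1.61 and 12.9 in ICGN. All 6 ICGN arrays lay below the array median of 40.4 and all 6 ICR arrays above it, so C1s1 passed the filter on dim values through ICR arrays alone. The difference in C1s1 was about as large at both ages (-4.12 ± 0.24 and -3.92 ± 0.24), with an excess at 8 weeks of 0.21 ± 0.34 that was not called (95% interval -0.51 to 0.94, adjusted p = 0.949). A probe set reads a short stretch near the end of a transcript, so a sequence difference between the strains within it and a lower transcript level cannot be told apart here.

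C2 encodes the component that C1s cleaves to build the C3 convertase. Its signal at 4 weeks was 275, 586 and 614 in ICR and 431, 415 and 749 in ICGN, and the groups overlapped. Its 8-week values were 569.6, 469 and 524 and 683, 611 and 758, with every ICGN array above every ICR array, yet the difference of 0.57 ± 0.26 was not called (adjusted p = 0.265). The probe set 1441912_x_at of C2 was called at 8 weeks (0.98 ± 0.24, adjusted p = 0.0205), and 1457664_x_at was not (0.63 ± 0.23, adjusted p = 0.135). At 4 weeks the lowest array of C2 was ICR replicate 1 and the highest ICGN replicate 3.

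The lectin pathway had 5 genes on the list and 3 that could be tested. Mbl1 encodes mannose-binding lectin A, which recognises sugars on microbes and damaged cells. Its signal at 4 weeks was 69.1, 65.0 and 83.5 in ICR and 136, 125 and 127 in ICGN. All ICGN arrays were above all ICR arrays (0.79 ± 0.16, adjusted p = 0.0162). At 8 weeks the values were 117, 92.7 and 119 in ICR and 95.5, 136 and 130.4 in ICGN. The groups overlapped there and the difference was 0.31 ± 0.16 (95% interval -0.04 to 0.65, adjusted p = 0.588). The test of the difference between the ages did not pass (-0.47 ± 0.23, adjusted p = 0.0935), and the call at 4 weeks was lost without ICGN replicate 1 or 2 or ICR replicate 1 or 2 of that age, with a difference of 0.74 to 0.80 and adjusted p from 0.0513 to 0.0787.

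Fcna, which encodes ficolin A, stood near the array median with 87.8, 51.8 and 22.4 in ICR and 39.7, 52.6 and 24.9 in ICGN at 4 weeks, and the groups overlapped (-0.27 ± 0.38, adjusted p = 0.807). At 8 weeks Fcna was at -0.30 ± 0.38 (adjusted p = 0.343). Masp1, the gene of a protease that works with these lectins, was not called at either age (-0.13 ± 0.24 and -0.26 ± 0.24). Its 2 other tested probe sets were not called either and pointed the other way, with 1.26 ± 0.42 at 8 weeks in 1419677_at (adjusted p = 0.0624) and 0.49 ± 0.38 in 1425985_s_at, so the direction of Masp1 depends on the probe set. Of these, 1419677_at had 1 ICR and 3 ICGN arrays of 8 weeks above the array median and 0 at 4 weeks. It passed the filter on dim values only through ICGN arrays. Without ICR replicate 1 of 8 weeks Masp1 was called lower (-0.55, adjusted p = 0.0173). Mbl2 and Masp2 lay below the array median in all 12 arrays, Mbl2 between 8.13 and 33.2 and Masp2, by the brighter of its 2 probe sets, between 15.4 and 36.6.

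Colec11, which encodes a kidney-expressed collectin of the same pathway and is not on the list of 32, was lower in ICGN at both ages. Colec11 signal was 106, 105 and 115 in ICR and 51.7, 51.8 and 70.5 in ICGN at 4 weeks, and 126, 107 and 119 against 46.4, 45.8 and 41.0 at 8 weeks. The ICR arrays lay above all ICGN arrays of Colec11 (-0.81 ± 0.16, adjusted p = 0.0104, and -1.05 ± 0.16, adjusted p = 6.8e-05). At 4 weeks that call was lost without ICGN replicate 1 or 2 (adjusted p = 0.055 and 0.0576).

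Cfb encodes factor B, the protease of the alternative pathway's C3 convertase. Its signal at 4 weeks was 950.2, 1194 and 1391 in ICR and 1001, 1009 and 1679 in ICGN. The 8-week values were 2252, 2416 and 2529.5 in ICR and 1731, 1919 and 2354 in ICGN. The strains overlapped at both ages, while every array of 8 weeks was above every array of 4 weeks. The strain difference was 0.05 ± 0.19 at 4 weeks (95% interval -0.35 to 0.46) and -0.08 ± 0.19 at 8 weeks (95% interval -0.49 to 0.32), neither called. Cfp, which encodes properdin, the stabiliser of that convertase, lay near the array median with means between 44.7 and 52.0 in the 4 groups, and was called in no comparison. Its other probe set, 1452279_at, did not pass the filter on dim values. At 8 weeks that probe set read 3.61, 4.93 and 3.74 in ICR and 42.2, 11.5 and 49.3 in ICGN, without overlap, and at 4 weeks the groups overlapped.

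Single arrays of 4 weeks stood apart in tubule markers. ICGN replicate 3 was the highest ICGN array in 8 of 9 proximal tubule markers, in 8 of the 18 tested complement genes (44.4%) and in 44.2% of all tested genes. ICR replicate 1 was the lowest ICR array in 6 of the 9 markers, in 5 of the 18 complement genes (27.8%) and in 33.8% of all tested genes. The complement genes with both were C2, Cfb and C8g, while in C8a ICR replicate 1 was the highest ICR array. The part of the tubule content of the dissected piece in these values was not tested.

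Of the terminal pathway, 4 of 6 measured genes were below the array median in all 12 arrays: Hc, which encodes C5, with signals between 1.76 and 26.1, C6 between 5.57 and 37.2, C8b between 2.45 and 5.60 and C9 between 6.47 and 34.8. C8a and C8g, which encode the alpha and gamma chains of C8, were tested. C8a signal at 4 weeks was 155, 122 and 101 in ICR and 34.6, 48.6 and 65.4 in ICGN. At 8 weeks it was 143, 233 and 260.2 in ICR and 84.3, 101 and 70.0 in ICGN. All ICGN arrays lay below all ICR arrays of the same age. The fold change was -1.20 ± 0.24 at 4 weeks (adjusted p = 0.0104) and -1.02 ± 0.24 at 8 weeks (adjusted p = 0.00155), and the difference between the ages was not called (0.19 ± 0.34, 95% interval -0.53 to 0.91). Without ICGN replicate 1 of 4 weeks, the lowest array, the call at that age was lost (adjusted p = 0.0573).

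C8b, the neighbour of C8a on chromosome 4, encodes the beta chain and had no signal above 5.60 in any array. The 250 bases before the start of C8a are shown because it was the member lower in ICGN at both ages, at chr4:104876399-104876648 on the minus strand (RefSeq, GRCm38.p6), with capitals at the letters TTCNNNGAA, the palindrome bound by STAT factors.
C8a: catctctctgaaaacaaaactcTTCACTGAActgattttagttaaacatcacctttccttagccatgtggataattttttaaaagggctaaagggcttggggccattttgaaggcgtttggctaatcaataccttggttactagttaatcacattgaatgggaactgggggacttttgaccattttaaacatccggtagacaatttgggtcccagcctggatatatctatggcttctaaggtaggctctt
These letters were found in 7.02% of all promoters and in 3 of 26 promoters of the complement genes, and none of the other motifs searched was found in the C8a window.

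C8g encodes a lipocalin that is joined to C8 alpha. Its signal was 243, 287 and 389 in ICR and 244, 217 and 368 in ICGN at 4 weeks, with overlap (-0.14 ± 0.20, adjusted p = 0.808). At 8 weeks the values were 360.1, 543 and 438 against 244, 301 and 261, with all ICGN arrays below all ICR arrays (-0.52 ± 0.20, adjusted p = 0.0156). That call was lost with quantile normalization (adjusted p = 0.0706), with the deposited scaling (adjusted p = 0.105), and without ICGN replicate 1 or ICR replicate 2 of 8 weeks (adjusted p = 0.062 and 0.0641). For C8g the test of the difference between the ages did not pass (-0.38 ± 0.29, adjusted p = 0.239).

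C8, C2, factor B and the mannose-binding lectins are known as liver products. Of the hepatocyte list 4 genes were tested, 0 were called at 4 weeks, and Apoh was lower at 8 weeks (-1.13 ± 0.33). Its summed signal was 149.6 to 184 in ICR and 142 to 191 in ICGN at 4 weeks, and 338 to 771 against 276 to 329 at 8 weeks. At 8 weeks 6 of 9 proximal tubule markers and 5 of 5 male-biased kidney genes were also lower in ICGN, with medians of -0.38 and -1.40, and none of either list was called at 4 weeks. Kap is on both lists and counted in each. Over all tested genes 26.0% were called lower at 8 weeks and 1.38% at 4 weeks. The part of these cells and of hormonal state in the values of C8a and C8g was not tested.

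The soluble inhibitors showed a strain difference that depended on age. Cfi encodes factor I, the protease that cuts C3b and C4b with the help of cofactors. At 4 weeks its signal was 243, 169 and 243 in ICR and 233, 201 and 199 in ICGN, with overlap and a difference of -0.02 ± 0.16 (95% interval -0.36 to 0.33). At 8 weeks it was 128, 119 and 117 in ICR and 397, 308 and 460.5 in ICGN. Every ICGN array of 8 weeks lay above every ICR array of either age, and the fold change was 1.78 ± 0.16, or 3.43-fold (adjusted p = 9.25e-06).

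Cfi changed in opposite directions with age in the strains. It fell in ICR (-0.87 ± 0.16, adjusted p = 0.00223) and rose in ICGN (0.92 ± 0.16, adjusted p = 0.00244). The strain difference at 8 weeks exceeded that at 4 weeks by 1.80 ± 0.23 (adjusted p = 0.00213). All of these calls of Cfi held in every alternative setting, and adjusted p stayed at or under 0.0138. Of the 18 complement genes 2 were called in this test of the difference between ages, Cfi and Serping1, against 7.85% of all tested genes. Among all such calls 27.9% were higher at 8 weeks with the common median and 53.9% with quantile normalization.

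Serping1 encodes the C1 inhibitor, which inactivates C1r, C1s and the lectin pathway proteases. Its signal was 1579, 1425 and 1185 in ICR and 1708, 1467 and 1401 in ICGN at 4 weeks, where the groups overlapped (0.15 ± 0.15, 95% interval -0.18 to 0.48). At 8 weeks it was 1348, 930.1 and 1280.2 against 2189, 2136 and 2576, and all ICGN arrays were above all others of the study (1.15 ± 0.15, adjusted p = 0.000318). The excess over the difference at 4 weeks was 1.01 ± 0.22 (adjusted p = 0.0309). That call was lost without ICGN replicate 2 or 3 or ICR replicate 1 or 2 of 4 weeks, and without ICGN replicate 3 or ICR replicate 2 of 8 weeks, with an excess of 0.87 to 0.99 and adjusted p from 0.0545 to 0.0785.

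A pair of genes outside the list of 32 was also called higher in ICGN at 8 weeks and not at 4 weeks, and was called in the excess. Clu encodes clusterin, which blocks assembly of the membrane attack complex and is also a marker of tubular injury. Clu signal was 1076, 1271 and 1474 in ICR and 2221, 1885 and 1254 in ICGN at 4 weeks, and 521, 785 and 549 against 2269.7, 1826 and 2957 at 8 weeks. At 4 weeks 2 of the 3 ICGN arrays of Clu lay above the ICR arrays, and at 8 weeks all did (2.09 ± 0.22, adjusted p = 2.51e-05). The excess in Clu was 1.62 ± 0.31 (adjusted p = 0.0142), and Clu fell with age in ICR (-1.13 ± 0.22, adjusted p = 0.00249). In ICGN the age change of Clu was 0.49 and not called (adjusted p = 0.21), but was called with the mean of its probe sets (0.63, adjusted p = 0.0429).

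Colec12 encodes a membrane collectin of vascular cells and macrophages. Colec12 signal was 88.1, 75.4 and 86.4 in ICR and 98.9, 75.4 and 52.6 in ICGN at 4 weeks, with overlap, and 76.0, 43.3 and 66.1 against 120.4, 142 and 194 at 8 weeks, without overlap. The difference at 8 weeks was 1.38 ± 0.23 (adjusted p = 0.00137) and the excess 1.52 ± 0.33 (adjusted p = 0.0234). Colec12 rose with age in ICGN (1.02, adjusted p = 0.0107), a call lost without ICGN replicate 3 of either age. Its age change in ICR was -0.50 and not called (adjusted p = 0.201). Without ICGN replicate 2 or 3 of 4 weeks the call of the excess in Colec12 was lost (adjusted p = 0.0506 and 0.0588). The plots of both ages set these genes beside Cfb and C8a.

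**Figure D4:**
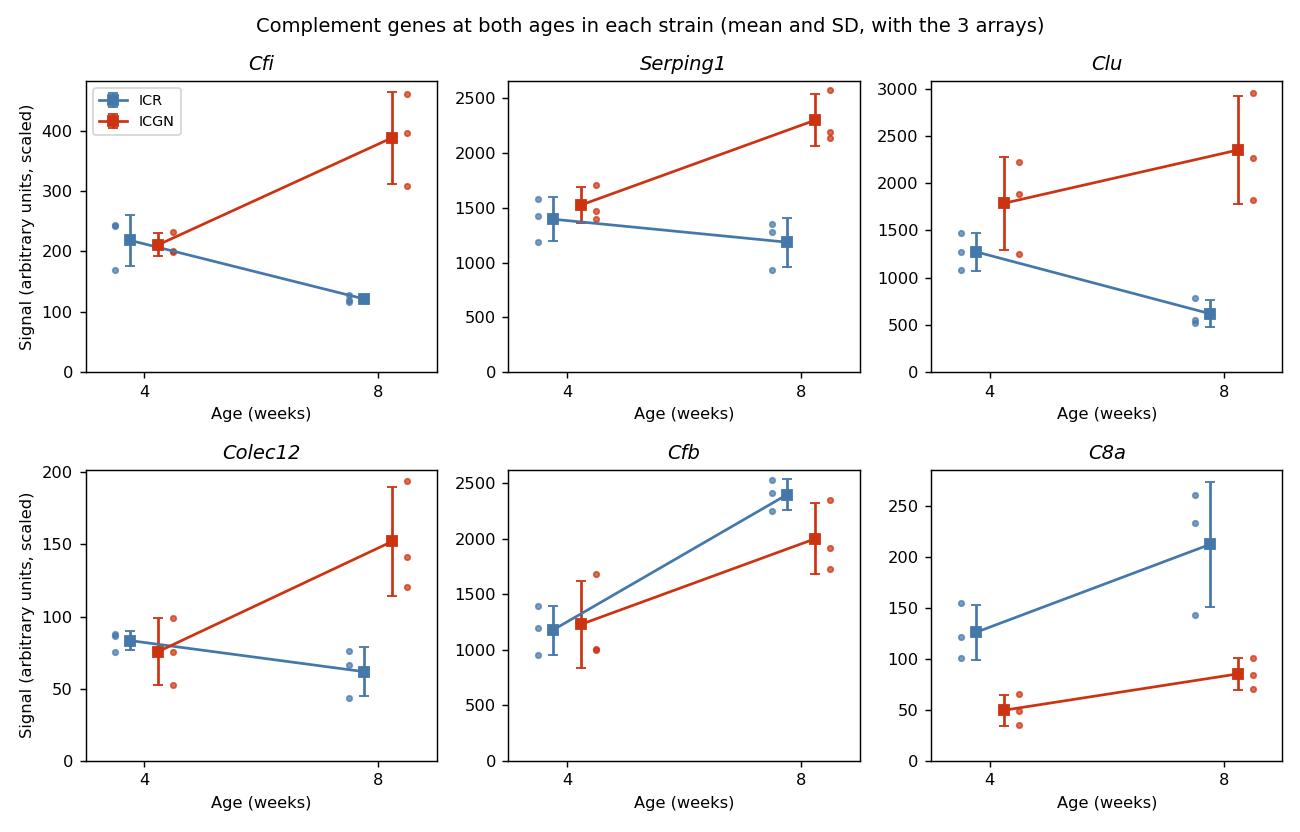
Scaled signal (y axes, arbitrary units) at 4 and 8 weeks (x axes) in ICR (blue) and ICGN (red) for Cfi, Serping1, Clu, Colec12, Cfb and C8a, as mean and SD of 3 arrays with each array beside it as a small point. Cfi means go from 218 to 121 in ICR and from 211 to 388 in ICGN, while those of Cfb rise in both strains.

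The membrane regulators protect host cells from their own complement. None of the 3 tested genes was called in a strain comparison. Cd59a, which encodes the blocker of the membrane attack complex, had signals of 604, 618 and 624 in ICR and 846, 755 and 706 in ICGN at 4 weeks. The groups did not overlap, and the difference was 0.33 ± 0.12 (95% interval 0.09 to 0.58, adjusted p = 0.184). Its other probe set, 1429830_a_at, was called higher in ICGN at that age (0.63 ± 0.13, adjusted p = 0.0217), and so was the mean of both probe sets (0.48, adjusted p = 0.0359). At 8 weeks the difference in Cd59a was 0.15 ± 0.12 (95% interval -0.09 to 0.40).

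Cr1l encodes Crry, the main regulator of C3 convertases on rodent cells. Its means lay between 692 and 758 in the 4 groups, and the strains differed by -0.05 ± 0.15 (95% interval -0.36 to 0.26) and 0.13 ± 0.15 (95% interval -0.18 to 0.44). Cd55 encodes decay-accelerating factor, which takes convertases apart. Its signal was 121, 51.1 and 59.3 in ICR and 118, 113 and 101 in ICGN at 4 weeks, and 86.1, 124 and 284 against 70.7, 129.7 and 105 at 8 weeks. Single ICR arrays stood far from the others of their group, replicate 1 at 4 weeks and replicate 3 at 8 weeks, and the groups overlapped (0.57 ± 0.35, adjusted p = 0.512, and -0.33 ± 0.35, adjusted p = 0.267). Neither other tested probe set of Cd55 was called between the strains. In 1418762_at the same ICR arrays stood apart, and in 1443906_at they did not. At 8 weeks these probe sets stood at -0.18 ± 0.37 and 0.20 ± 0.22, so the direction of Cd55 at that age depends on the probe set. Cd46, in mice a gene mainly of sperm, lay above the array median in only 2 of 12 arrays and was not tested.

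Of the receptors C3ar1 alone could be tested. It encodes the receptor of C3a on macrophages and other cells. Its signal at 4 weeks was 13.8, 17.9 and 46.3 in ICR and 74.6, 45.9 and 52.3 in ICGN, so ICR replicate 3 reached the lowest ICGN array (1.04 ± 0.29, adjusted p = 0.0772). At 8 weeks it was 41.2, 39.2 and 40.4 against 79.5, 72.5 and 96.5, without overlap (1.08 ± 0.29, adjusted p = 0.0269). The ICR arrays of 8 weeks lay close to the array median of 40.4, so this gene was measured at the dim end of the range. The difference at 8 weeks exceeded that at 4 weeks by 0.05 ± 0.41, which was not called (95% interval -0.82 to 0.92).

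The C3ar1 calls lie close to the threshold and vary with the probe set. The call at 8 weeks was lost without ICGN replicate 1 or 3 or ICR replicate 2 or 3 of that age (adjusted p from 0.0572 to 0.0857), with the difference still between 1.03 and 1.08. C3ar1 was called at 4 weeks without ICR replicate 3 of that age (1.39, adjusted p = 0.00902), with the mean of its probe sets (1.02, adjusted p = 0.0131) and with only the arrays of that age (1.03, adjusted p = 0.0353). The probe sets 1419483_at and 1442082_at of C3ar1 were called higher in ICGN at 4 weeks (1.03 ± 0.24, adjusted p = 0.0407, and 0.99 ± 0.24, adjusted p = 0.0428). At 8 weeks 1442082_at was called (1.77 ± 0.24, adjusted p = 0.00023) and 1419483_at was not (0.81 ± 0.24, adjusted p = 0.0593). All 3 probe sets of C3ar1 pointed to a higher level in ICGN at both ages. The probe set 1442082_at had 0 ICR arrays above the array median, and 1419483_at had 0 at 4 weeks and 1 at 8 weeks. Both passed the filter on dim values only through ICGN arrays, where they are high. Their calls, and the call of the mean that includes them, are therefore no independent support.

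The promoter of C3ar1 is shown because this receptor gene differed with the C1q chains, at chr6:122856158-122856407 on the minus strand (RefSeq, GRCm38.p6). Capitals mark the letters TGANTCA, bound by AP-1 factors, which begin 22 bases before the start, and TATAAA, the TATA box letters, at 235.
C3ar1: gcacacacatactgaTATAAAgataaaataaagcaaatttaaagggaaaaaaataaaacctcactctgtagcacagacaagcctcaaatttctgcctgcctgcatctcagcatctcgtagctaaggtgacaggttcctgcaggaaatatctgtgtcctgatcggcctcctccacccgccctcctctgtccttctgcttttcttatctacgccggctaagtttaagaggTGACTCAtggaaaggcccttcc
AP-1 letters were in 6.75% of all promoters and in 2 of 26 of the complement genes, and TATAAA in 12.4% and 3 of 26. The PU.1 letters found before C1qb and C1qc are not in the C3ar1 window. The other motifs searched on both strands were GGANTTTCC for NF-kB, in 1.07% of all promoters and 0 of the 26, GAAANNGAA for interferon-response elements, in 7.13% and 2, and TTGCNNAA for C/EBP, in 9.56% and 2. No match overlapped another in the 4 windows printed.

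C5ar1, the receptor gene of C5a, and Cr2, a receptor gene of B cells, lay below the array median in all 12 arrays, C5ar1, by the brighter of its 2 probe sets, between 2.81 and 18.6 and Cr2 between 4.87 and 20.2. Vsig4, a complement receptor gene of resident macrophages, was above it in 1 of 12. Of B and plasma cell markers 3 were tested, with 0 called at 4 weeks and Jchain and Mzb1 lower in ICGN at 8 weeks. The share of all tested genes called lower was 1.38% at 4 weeks and 26.0% at 8 weeks. Both tested T cell markers and the tested neutrophil marker were not called at either age.

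The integrin genes Itgax and Itgb2, which encode the chains of complement receptor 4 on myeloid cells and are not on the list of 32, were called higher in ICGN at 8 weeks. Itgax signal was 53.9, 61.2 and 52.3 in ICR and 165, 115 and 145 in ICGN (1.39 ± 0.19, adjusted p = 0.000319), after 28.8, 28.5 and 34.7 and 38.9, 40.4 and 53.6 at 4 weeks. Itgb2 signal at 8 weeks was 52.1, 58.8 and 96.0 in ICR and 173, 132 and 189 in ICGN (1.37 ± 0.28, adjusted p = 0.00514). Neither overlapped at 8 weeks, and neither was called at 4 weeks (0.44 ± 0.19 and 0.89 ± 0.28). Without ICR replicate 1 of 4 weeks, Itgb2 was called at that age too (1.25, adjusted p = 0.0143). Neither gene passed the test of the difference between the ages (0.96, adjusted p = 0.084, and 0.48, adjusted p = 0.653). With 4 times the offset Itgax passed it (adjusted p = 0.0439).

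Of 36 further complement genes looked up, 25 had a named probe set and 12 were tested. At 4 weeks 0 were called higher and 2 lower, C1s1 and Colec11. At 8 weeks 4 were called higher, Clu, Colec12, Itgax and Itgb2, and the same pair lower. Over all tested genes, calls toward ICGN made up 1.60% at the younger age and 8.51% at the older one, and calls toward ICR 1.38% and 26.0%. The median log2 fold change of the 12 was -0.01 at 4 weeks and 0.20 at 8 weeks. The 13 others with a named probe set did not pass the filter on dim values.

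With age, 4 of the 18 complement genes rose in ICR, 1 fell and 13 were not called, against a background of 18.0% of all genes higher and 10.7% lower. In ICGN 3 rose, 0 fell and 15 were not called, against 6.35% higher and 12.8% lower. The balance of age calls in ICR moves with the scaling, with 62.6% of all calls higher at the common median and 45.2% with quantile normalization. Cfb rose in both strains, with 0.95 ± 0.19 in ICR (adjusted p = 0.00094) and 0.81 ± 0.19 in ICGN (adjusted p = 0.0141). The call in ICGN was lost without ICGN replicate 1 or 2 of 4 weeks or replicate 3 of 8 weeks (0.69 to 0.75, adjusted p from 0.0588 to 0.0742). The age changes of Cfb were not shown to differ between the strains (-0.13 ± 0.27, 95% interval -0.70 to 0.44).

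Mbl1 rose with age in ICR (0.45 ± 0.16, adjusted p = 0.0221), and in ICGN the value was -0.03 ± 0.16 (adjusted p = 0.697). At 8 weeks the arrays of both strains overlapped. C8a was near the threshold in both strains. It was called higher in ICR (0.60 ± 0.24, adjusted p = 0.0409), a call lost in 11 of 20 alternatives. In ICGN it stood at 0.79 ± 0.24 and was not called (adjusted p = 0.050008). There it was called in 9 of 20 alternatives, with adjusted p between 0.0269 and 0.198 over all of them. Cd59a rose in ICR by little (0.27 ± 0.12, adjusted p = 0.0298). Serping1 rose in ICGN (0.67 ± 0.15, adjusted p = 0.0141) and stood at -0.33 ± 0.15 in ICR (adjusted p = 0.254).

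Several of these age calls lie close to the threshold and were lost with less data, with differences of similar size. Mbl1 lost its call in ICR without replicate 1 or 2 of 4 weeks or 1 or 3 of 8 weeks (0.39 to 0.43, adjusted p from 0.0617 to 0.0812). C8a in ICR lost it without ICR replicate 2 or 3 of either age, ICGN replicate 2 of 4 weeks or ICGN replicate 1 of 8 weeks, and under 5 processing alternatives (0.44 to 0.66, adjusted p up to 0.166). Cd59a lost it without any 1 of the 6 ICR arrays (0.22 to 0.32, adjusted p from 0.0507 to 0.0803), with quantile normalization (0.19, adjusted p = 0.194) and with the mean of its probe sets (0.21, adjusted p = 0.0808). Serping1 in ICGN lost it without replicate 2 or 3 of 4 weeks or 3 of 8 weeks (0.60 to 0.65, adjusted p from 0.0527 to 0.0548).

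By the probe set that stands for each gene, the C1q chains were not called in either age comparison. C1qa stood at -0.28 ± 0.19 in ICR and 0.51 ± 0.19 in ICGN. Of 14 macrophage markers 13 rose with age in ICGN and 3 in ICR, against 6.35% and 18.0% of all tested genes. Without ICGN replicate 2 of 8 weeks, C1qa and C1qc were called in ICGN (0.72 and 0.79, adjusted p = 0.0325 and 0.0289). Other probe sets rose in ICGN. C1qb stood at 0.32 ± 0.17, but its probe set 1437726_x_at was called (1.15 ± 0.24, adjusted p = 0.00539), as was the mean of its probe sets (0.65, adjusted p = 0.04), while 1434366_x_at was not (0.45 ± 0.21, adjusted p = 0.199). The C2 probe set 1441912_x_at was called (1.14 ± 0.24, adjusted p = 0.00625), as was the mean of the C2 probe sets (0.79, adjusted p = 0.0446). The C3ar1 probe set 1442082_at was called too (0.80 ± 0.23, adjusted p = 0.0382). It passed the filter on dim values only through ICGN arrays, so its call is no independent support. The probe sets that stand for C2 and C3ar1 were not called.

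Markers of the labelled tissue gave signal. Slc34a1 of the proximal tubule had group means between 8129.5 and 12186, and all 9 proximal tubule, all 6 distal and collecting duct and all 5 named podocyte markers passed the filter. At 8 weeks all 5 endothelial markers were lower in ICGN, the collagen genes Col1a1 and Col1a2 of the 6 fibroblast markers were higher, Synpo of the podocyte markers was higher, and Slc12a3 and Pvalb of the distal list were lower, as at 4 weeks. Of 4 tested adipocyte markers Retn and Lipe were lower at 8 weeks, and of 3 tested adrenal markers Dbh was lower. Apart from Slc12a3 and Pvalb, none of these lists had a call at 4 weeks. Over all tested genes 8.51% were called higher and 26.0% lower at 8 weeks.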

How the data were processed

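Per the labels' protocols, biotin-labelled cRNA of renal cortex was read on Affymetrix Mouse Genome 430 2.0 arrays. The deposited values are the authors' signal intensity of each probe set, and the submitters' processing notes name MAS5, with no version. Of 45101 probe sets, 34958 had 1 gene symbol, 932 several and 9211 none, and 0 value columns lacked a sample.

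The following was computed with R 4.3.3 and limma 3.58.1. Arrays were brought to a median of 40.4 and put on the scale log2(signal + 9), with the deposited table's 25th percentile as offset. Probe sets above their array's median in at least 3 of 12 arrays were kept, and the brightest one, with _x_at last, stood for a gene. A model of 4 group means with a mean-variance trend was fitted to all 12 arrays, with 8 residual degrees of freedom, and gave the strain difference at each age, the difference between these, and the age change in each strain. The script was tested on simulated data.

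The text names every complement gene with a probe set, further complement genes called between the strains, and marker lists. The genes and lists were chosen with earlier results of these data known. Alternatives were other offsets, scalings and filters, the mean of a gene's probe sets, a replicate block, no trend, only the arrays of 1 age, and each array left out.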

Additional observations from a re-analysis of the deposited data

Results flagged for a closer look

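Of 30 tested complement genes, the 18 of the list and 12 others, 4 had a strain difference that itself differed between the ages, by limma's test of the strain difference at 8 weeks minus that at 4 weeks. Over all tested genes the share was 7.85%. On the log2 scale this excess was 1.80 for Cfi (adjusted p = 0.00213), 1.01 for Serping1 (adjusted p = 0.0309), 1.52 for Colec12 (adjusted p = 0.0234) and 1.62 for Clu (adjusted p = 0.0142). In all 4 genes the 3 ICGN arrays of 8 weeks lay above the 3 ICR arrays of that age. No test for outlying arrays was run on groups of 3, but each array was left out in turn. The calls of Cfi and Clu were kept throughout, while those of Serping1 and Colec12 were lost without certain arrays.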

How the results depend on the processing

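Counts of called complement genes were recomputed under each alternative, and no call of a complement gene changed its direction. At 4 weeks the strain comparison gave 6 calls. It gave 3 with a filter at the 75th percentile, where C1ra, Mbl1 and C8a were too dim to be tested, and 3 to 7 with 1 array left out. At 8 weeks the 8 calls became 6 to 9 with 1 array left out. The difference between the ages gave 2 calls, 1 without a mean-variance trend, where Serping1 was lost (adjusted p = 0.0568), and 1 to 3 with 1 array left out. The age change in ICR gave 5 calls and 2 to 6 with 1 array left out. The age change in ICGN gave 3 calls, 5 with quantile normalization, 5 when arrays were centred on the tested probe sets, 6 with the mean of all probe sets of a gene, and 1 to 5 with 1 array left out.

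The count over all genes at 4 weeks was 369, and 558 with quantile normalization. With 1 array left out it was 168 to 415 at 4 weeks, 465 to 1050 against 972 in the difference between ages, and 1466 to 2479 against 2371 in the age change of ICGN. Calls kept in every alternative that tested the gene were those of C1qa, C1qb and C1qc at both ages, of C8a, Cfi and Serping1 at 8 weeks, of Cfi in the difference between ages and in both age comparisons, and of Cfb in the age change of ICR. With the replicate block the counts were 6, 8, 2, 5 and 3, the same as without it, though in the age change of ICR C8a was lost (adjusted p = 0.0501) and C8g gained. Deviations of arrays with the same number correlated with r between -0.10 and 0.11, and those with different numbers between -0.16 and 0.15. These values show no sign of pairing by number, but with 3 arrays a group they cannot exclude it. With probe sets fitted one at a time, chosen after seeing the data, the counts by the probe set that stands for a gene were 6, 8, 2, 5 and 3. Another probe set added C3ar1 and Cd59a at 4 weeks, C2 at 8 weeks, and C1qb, C2 and C3ar1 in the age change of ICGN. The added probe sets of C3ar1 passed the filter on dim values only through ICGN arrays. No probe set carries a detection call in the table used, so values below the array median have no stated limit of detection.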
